A study of Homo sapiens with 9 samples.

Results

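The genes of 8 ligands of the EGF family, EGF, TGFA, HBEGF, AREG, EREG, BTC, EPGN and NRG1, were followed in HaCaT keratinocytes, an immortalized human skin cell line. They were found by gene symbol among the 16199 genes listed in the 9 sequenced libraries, and all 8 were listed. The 9 libraries form 3 groups of 3 replicates. Untreated cells were kept in serum-free medium, EGF-treated cells received EGF (10 nM) in that medium for 24 h, and bleogen pB1-treated cells received bleogen pB1 (1 µM) in it for 24 h. All groups are the same line, labelled wild type, and the treatments were given after confluence. The labels give no time for the untreated cells. The EGF was a recombinant human protein and bleogen pB1, a cystine-knot peptide of the cactus Pereskia bleo that binds the EGF receptor (EGFR), was made by chemical synthesis. A single immortalized line is a limited model of epidermis, and nothing states that the replicates were grown as separate cultures, so p-values measure the spread between these libraries.

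Ligands of this family are made as membrane-anchored precursors, and sheddases such as ADAM17 and ADAM10 release the soluble factor. EGF, TGF-α (TGFA) and amphiregulin (AREG) bind EGFR alone, whereas HB-EGF (HBEGF), betacellulin (BTC) and epiregulin (EREG) also bind ERBB4, epigen (EPGN) binds EGFR weakly, and neuregulin 1 (NRG1) binds ERBB3 and ERBB4. Keratinocytes are known to make several of these ligands themselves and to raise some of them when EGFR is stimulated, a loop described in wounded epidermis.

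Library totals over genes ran from 20288417 to 21320994 expected counts. Levels are given as CPM (counts scaled to a common, TMM-adjusted library size). The smallest level that can be shown was taken as 3 counts, which covers counting error only. Before the TMM adjustment, 3 counts correspond to 0.141 to 0.148 CPM. The adjustment shifts this slightly, for example to 0.139 CPM in replicate 2 of bleogen pB1. All 10 keratinocyte markers examined had counts in every group. They summed to 13692 to 15017 CPM without treatment, 12512 to 12936 after EGF and 13135 to 15347 after bleogen pB1. KRT5 led in each group, with a mean of 7811, 3604 and 7217 CPM in the same order. By the thresholds given below, 3 of the 10 markers were higher with EGF, 2 were lower and 5 were not called. Among all tested genes, 15.1% were higher and 21.8% lower. The median log2 fold change of the 10 was 0.31, against −0.01 over all tested genes. The 7 fibroblast markers summed to 7.62 to 9.31 CPM without treatment, 1.30 to 2.00 after EGF and 6.08 to 9.17 after bleogen pB1, the 5 endothelial markers to 3.44 to 4.78, 0.289 to 0.504 and 1.16 to 1.91, the 5 melanocyte markers to 1.40 to 1.72, 0.800 to 1.30 and 1.11 to 1.62, and the 5 leukocyte markers, led by CD68, to 12.4 to 14.0, 20.5 to 22.3 and 12.1 to 12.6. Of each of these 4 lists, 0 to 2 markers had no count in any library of a group. The part of these genes in the results was not tested. In bulk RNA, fewer cells that make a transcript and less transcript per cell cannot be told apart.

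Of the 8 genes, 4 are neighbours on the long arm of chromosome 4, and no other protein-coding gene lies wholly between them. In GENCODE release 44 on GRCh38 they run in the order EPGN (chr4:74308470-74316789), EREG (chr4:74365145-74388749), AREG (chr4:74445136-74455005) and BTC (chr4:74744759-74794523), over 486 kb. The first 3 are read in the forward direction and BTC in reverse, and BTC stands 290 kb beyond the end of AREG, whereas the gaps between the others are 48.4 and 56.4 kb. EGF itself is farther along the same chromosome (chr4:109912883-110013766). TGFA lies on chromosome 2 (chr2:70447284-70554193, reverse strand), HBEGF on chromosome 5 (chr5:140332843-140346603, reverse strand) and NRG1 on chromosome 8.

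The promoters of the 4 neighbours are shown because their transcripts moved by very different amounts, and that of HBEGF because it had the largest change. RefSeq (GRCh38.p14) gives 250 bases before to 50 after the transcription start, and 6 of the members were looked up and matched. Each was searched on both strands for 4 motifs: the cAMP response element TGACGTCA, the AP-1 site TGACTCA, the TATA box TATAAA and the EGR site GCGGGGGCG. No match overlapped another. Capitals mark the matches.

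AREG (chr4:74444886-74445185, + strand): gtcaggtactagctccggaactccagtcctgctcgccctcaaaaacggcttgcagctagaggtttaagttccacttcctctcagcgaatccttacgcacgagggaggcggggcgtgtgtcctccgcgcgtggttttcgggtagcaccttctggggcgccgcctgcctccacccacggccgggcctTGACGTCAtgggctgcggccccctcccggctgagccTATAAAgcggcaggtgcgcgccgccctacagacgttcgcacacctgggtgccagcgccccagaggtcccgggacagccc

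EREG (chr4:74364895-74365194, + strand): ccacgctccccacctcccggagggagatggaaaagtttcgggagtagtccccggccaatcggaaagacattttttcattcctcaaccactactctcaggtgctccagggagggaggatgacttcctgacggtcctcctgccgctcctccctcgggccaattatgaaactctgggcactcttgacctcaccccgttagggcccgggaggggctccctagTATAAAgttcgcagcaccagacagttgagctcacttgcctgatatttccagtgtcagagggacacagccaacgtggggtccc

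EPGN (chr4:74308220-74308519, + strand): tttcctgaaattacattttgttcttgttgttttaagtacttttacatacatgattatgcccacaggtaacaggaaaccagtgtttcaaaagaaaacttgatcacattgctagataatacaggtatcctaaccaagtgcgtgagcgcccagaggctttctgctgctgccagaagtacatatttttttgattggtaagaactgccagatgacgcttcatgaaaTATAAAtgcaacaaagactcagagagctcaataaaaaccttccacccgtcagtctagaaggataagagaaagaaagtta

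BTC (chr4:74794474-74794773, - strand): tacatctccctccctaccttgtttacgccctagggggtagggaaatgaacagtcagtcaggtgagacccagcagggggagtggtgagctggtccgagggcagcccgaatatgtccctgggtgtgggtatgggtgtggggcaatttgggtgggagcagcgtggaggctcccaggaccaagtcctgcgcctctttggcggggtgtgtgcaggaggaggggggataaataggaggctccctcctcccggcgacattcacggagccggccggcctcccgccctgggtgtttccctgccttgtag

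HBEGF (chr5:140346554-140346853, - strand): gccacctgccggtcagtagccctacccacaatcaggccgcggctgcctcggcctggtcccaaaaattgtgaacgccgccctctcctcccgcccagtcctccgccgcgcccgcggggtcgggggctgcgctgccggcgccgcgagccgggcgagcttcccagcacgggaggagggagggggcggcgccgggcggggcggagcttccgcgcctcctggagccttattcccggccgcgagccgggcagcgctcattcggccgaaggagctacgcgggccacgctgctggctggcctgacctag

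The AREG promoter held a cAMP response element that starts 65 bases before the transcription start, a motif in 1.85% of the 35116 promoters in the table. TATAAA began 29 bases before the start in AREG and EPGN and 32 before it in EREG, and 11.5% of all promoters hold it on either strand. The other motifs had no match in these windows, with a background of 4.95% for the AP-1 site and 5.07% for the EGR site. None of the 4 motifs was found in the windows of BTC and HBEGF, or in either of the 2 TGFA windows. These are letter matches and not shown sites of binding.

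Before treatment, NRG1 was the most abundant ligand transcript. Levels are compared between genes as FPKM (fragments scaled for transcript length and library size), as deposited. In untreated cells the mean was 26.4 ± 1.78 FPKM for NRG1, 7.65 ± 0.581 for TGFA and 3.40 ± 0.390 for AREG (SD, n = 3 each), and these did not overlap. HBEGF at 1.54 ± 0.392, BTC at 1.15 ± 0.284 and EREG at 0.980 ± 0.0529 FPKM followed, and neighbours in this order overlapped. EPGN was at 0.520 ± 0.0917 FPKM. The EGF gene was scarcely detected: its expected counts were 1, 2 and 1 without treatment, 0, 5 and 2 after EGF and 4, 3 and 3 after bleogen pB1, so the group means lie near or under the 3-count floor and no fold is given. The count of 0 allows up to 0.144 CPM in that library before its TMM factor of 0.964 is applied, and slightly more after. The other 7 ligands passed the count filter and were tested.

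Comparison of EGF-treated with untreated cells asks which ligand transcripts follow EGF itself. HBEGF, AREG, EREG, TGFA, NRG1 and EPGN were upregulated and BTC was downregulated, so that all 7 tested ligands were differentially expressed genes (DEGs). A DEG had an adjusted p no higher than 0.05 and a log2 fold change (log2FC) no smaller than 0.5 in size, by the quasi-likelihood test of edgeR, adjusted after Benjamini and Hochberg over 12394 tested genes. Among all tested genes, 15.1% were upregulated and 21.8% downregulated DEGs, 36.9% together. The median log2FC was 2.23 over the 7 ligands and −0.01 over all tested genes.

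HBEGF, a heparin-binding ligand, had 2.80, 3.29 and 4.49 CPM in the untreated libraries and 101, 108 and 102 CPM in the EGF-treated ones. Every EGF-treated library lay far above every untreated library. The log2FC was 4.87 (SE 0.19, edgeR adjusted p = 6.2e-10), a 29.3-fold rise (95% interval 22.1 to 38.9), which ranks 15 among the rises of all tested genes.

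AREG, the heparin-binding ligand amphiregulin, had 3.57, 4.27 and 4.44 CPM without treatment and 84.2, 85.6 and 84.7 CPM with EGF. The EGF-treated libraries were close to each other and far from the untreated ones. Its log2FC was 4.37 (SE 0.12, edgeR adjusted p = 4.0e-11), a 20.7-fold rise (95% interval 17.3 to 24.7) and rank 18 among the rises.

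EREG, which encodes epiregulin, rose from 4.63, 4.18 and 4.49 CPM to 39.8, 44.5 and 42.0 CPM, again with no overlap. The log2FC was 3.25 (SE 0.24, edgeR adjusted p = 1.7e-07), or 9.49-fold (95% interval 6.65 to 13.5). TGFA, which encodes TGF-α, rose from 30.2, 31.9 and 34.8 CPM to 152, 147 and 156 CPM. TGFA started higher and rose by less, with a log2FC of 2.23 (SE 0.09, edgeR adjusted p = 7.8e-10), or 4.69-fold (95% interval 4.11 to 5.35).

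NRG1, the ligand of ERBB3 and ERBB4, had 117, 108 and 123 CPM without treatment and 228, 186 and 207 CPM with EGF. The groups did not overlap, and the log2FC of 0.84 (SE 0.09, edgeR adjusted p = 4.6e-06) was far smaller than those of HBEGF, AREG, EREG and TGFA. EPGN, which encodes epigen, had 1.49, 1.13 and 1.24 CPM without treatment and 2.10, 2.52 and 2.17 CPM with EGF, from 23 to 50 counts per library. Its log2FC was 0.81 (SE 0.23, edgeR adjusted p = 0.0080, 95% interval 0.30 to 1.31), and it fell short of the fold limit (0.30, adjusted p = 0.0046) in limma on log2(FPKM + 1).

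BTC, which encodes betacellulin, moved the other way. It had 3.62, 3.29 and 2.20 CPM in the untreated and 0.550, 0.856 and 0.674 CPM in the EGF-treated libraries, 11 to 17 counts in each of the latter. Every EGF-treated library lay below every untreated one, and the log2FC was −2.12 (SE 0.27, edgeR adjusted p = 1.9e-05), a 4.35-fold fall (95% interval 2.90 to 6.53). The CPM values of all 7 tested ligands were without overlap between EGF-treated and untreated cells, as were those of 70.4% of all tested genes. For each of them a two-sided exact permutation test over the libraries gave p = 0.1, the smallest that 3 against 3 allow.

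**Figure D1:**
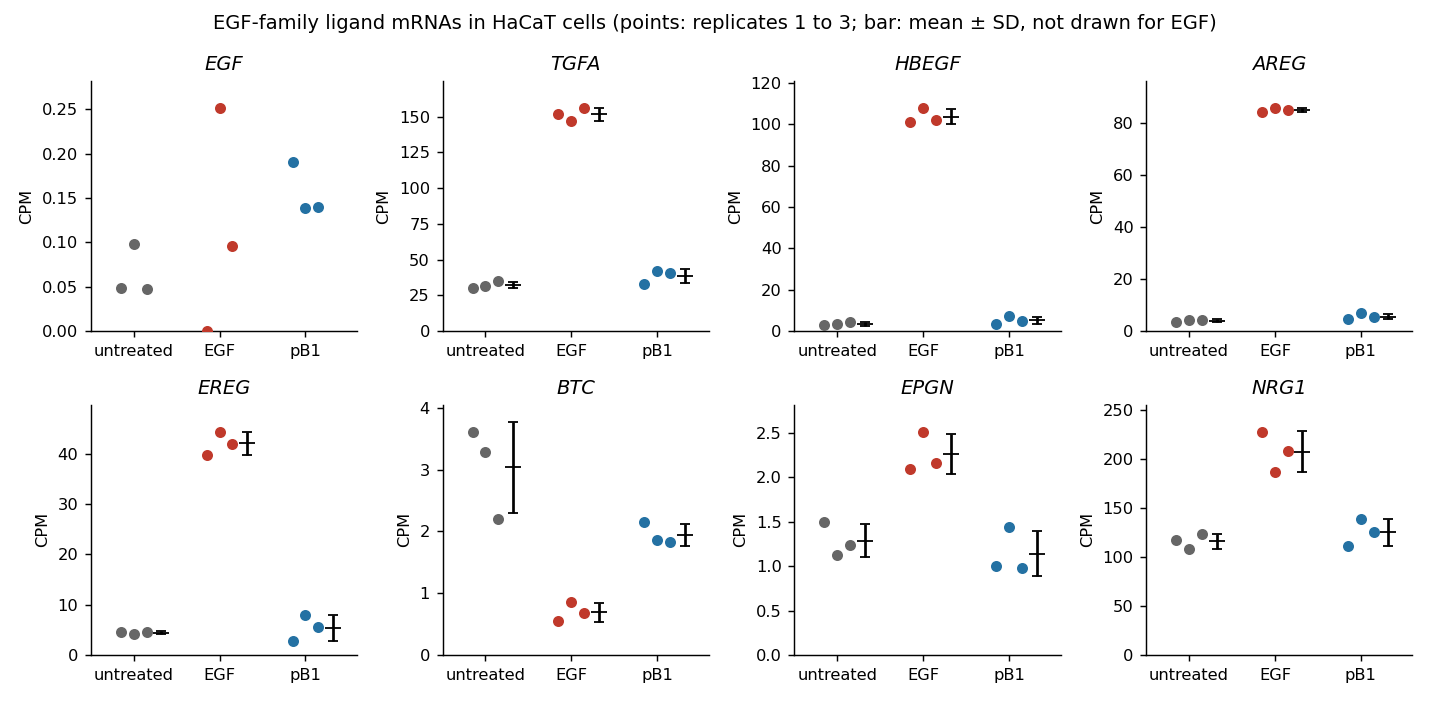
CPM of each ligand gene (y axis, linear from 0, its own scale in each panel) in untreated, EGF-treated and bleogen pB1-treated (pB1) HaCaT cells. Points are replicates 1 to 3 from left to right and bars the mean ± SD (n = 3), not drawn for EGF, whose libraries hold 0 to 5 counts. HBEGF lies at 101 to 108 CPM with EGF and at 2.80 to 7.19 CPM in the other libraries, and BTC is lowest with EGF.

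Within the cluster on chromosome 4, the log2FC values under EGF were 0.81 for EPGN, 3.25 for EREG, 4.37 for AREG and −2.12 for BTC. The 3 forward genes rose by unequal amounts, and the reverse gene fell. Under bleogen pB1 the values in the same order were −0.17, 0.28, 0.46 and −0.64, of which none passed the test.

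**Figure D2:**
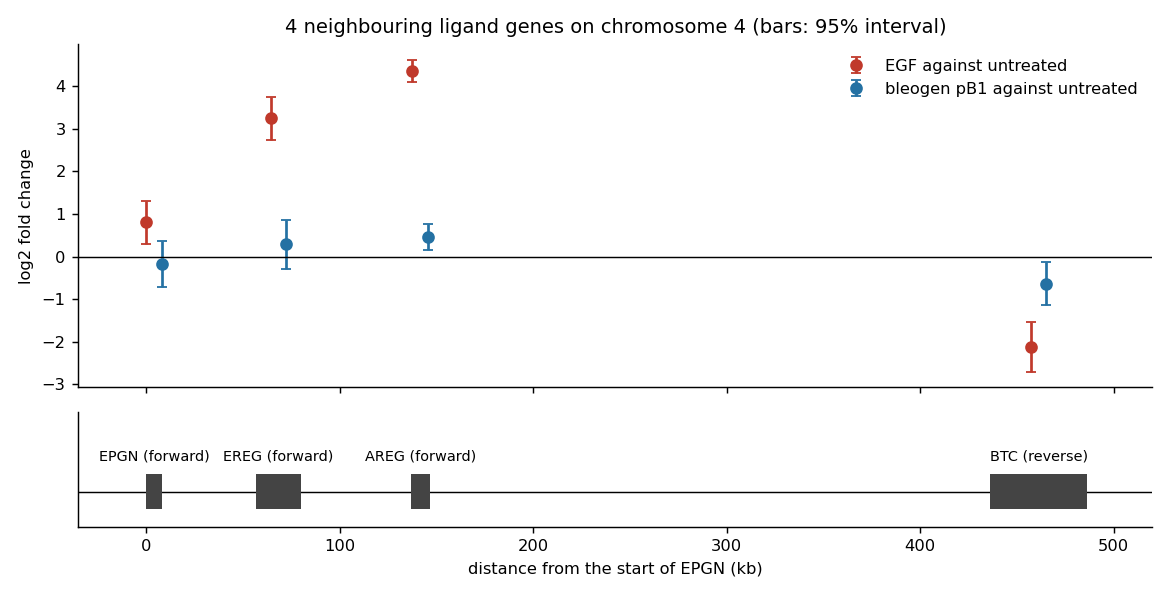
Log2 fold change against untreated cells (upper y axis, edgeR, bars are 95% intervals) of the 4 neighbouring ligand genes by distance from the start of EPGN (x axis, kb), with the points of the 2 treatments set apart sideways and the genes drawn to scale in the lower panel. Under EGF the values are 0.81, 3.25, 4.37 and −2.12 from EPGN to BTC, and under bleogen pB1 all lie between −0.64 and 0.46.

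The total of the ligand transcripts and its makeup both differed with EGF. Summed over the 7 ligands that bind EGFR, the level was 14.4, 15.1 and 16.3 FPKM in untreated and 152, 157 and 155 FPKM in EGF-treated libraries, a ratio of 10.2 between the means. This sum and its ratio depend on the scaling by gene length, which weights a short transcript such as AREG (1290 bases) more per count than longer ones. The groups did not overlap (exact permutation test, two-sided, p = 0.1, the smallest possible). In EGF-treated cells the order of levels was AREG at 67.0 ± 0.519, then NRG1 at 43.6 ± 4.52 and HBEGF at 43.3 ± 1.61 FPKM, of which the last pair overlapped, then TGFA at 34.4 ± 1.10 and EREG at 8.93 ± 0.520 FPKM. EPGN at 0.873 ± 0.104 and BTC at 0.257 ± 0.0603 FPKM (SD, n = 3 each) came below these.

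As a share of the summed FPKM of the 8 ligands, which does not depend on the scaling between libraries, NRG1 made up 63.4% ± 1.22 in untreated and 22.0% ± 2.03 in EGF-treated cells. AREG went from 8.15% ± 0.784 to 33.8% ± 0.672 and HBEGF from 3.68% ± 0.719 to 21.9% ± 1.08 (SD, n = 3 each). EREG went from 2.35% ± 0.142 to 4.51% ± 0.313, and BTC from 2.79% ± 0.816 to 0.130% ± 0.0320. The share of EPGN was lower with EGF, at 0.441% ± 0.0581 against 1.25% ± 0.240, while its level was higher. For these 6 genes the shares did not overlap between the groups (exact permutation test, two-sided, p = 0.1, the smallest possible, adjusted to 0.13 over the 24 shares compared). TGFA held 18.3% ± 0.612 and 17.3% ± 0.413, with overlap (exact permutation test, p = 0.2, adjusted 0.21), although its mean level rose from 7.65 to 34.4 FPKM. Shares depend on the scaling by gene length. On expected counts the share of TGFA differed by 5.95 percentage points in place of −1.02, which turns its direction. The share of NRG1 differed by −35.5 in place of −41.5 and that of HBEGF by 15.4 in place of 18.2. AREG differed by 11.8 in place of 25.6 and EREG by 4.43 in place of 2.15. BTC differed by −1.74 in place of −2.66 and EPGN by −0.41 in place of −0.81.

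**Figure D3:**
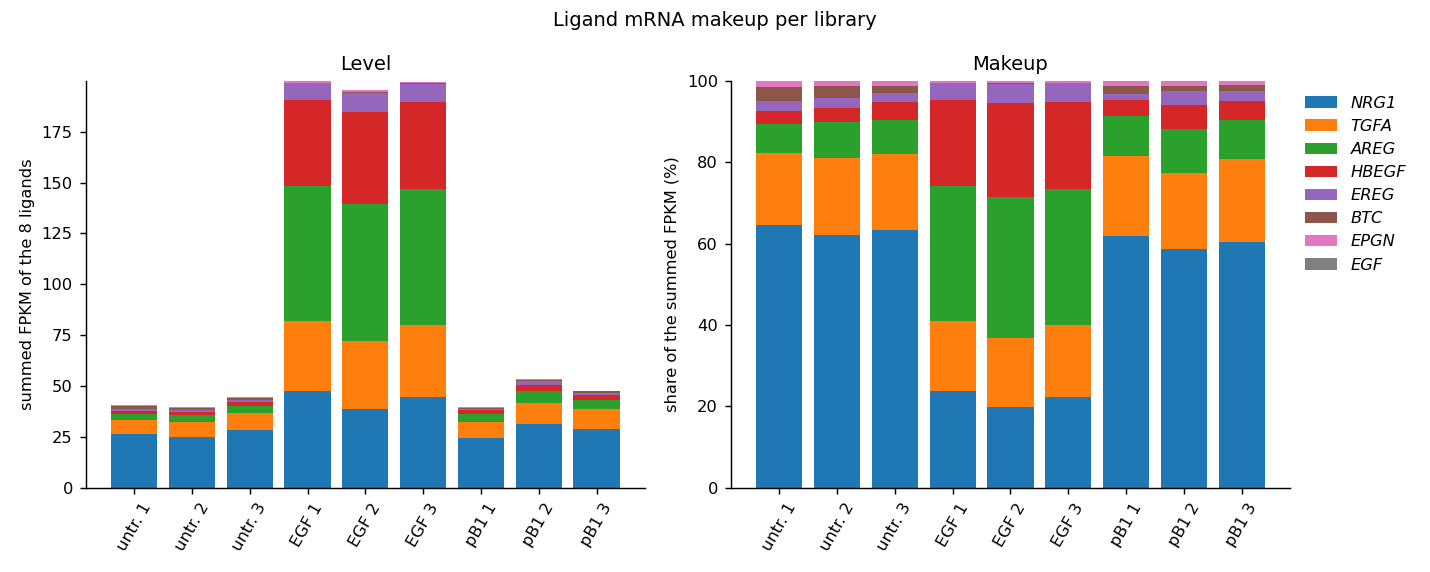
Summed FPKM of the 8 ligands (left y axis) and the share of each ligand in it (right y axis, %) in each of the 9 libraries (x axis, replicate numbers after the group). The EGF-treated libraries reach 196 to 200 FPKM in all, against 39.8 to 53.6 in the others, and NRG1 makes up 19.8% to 23.8% of them against 58.7% to 64.6%.

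The second comparison, of bleogen pB1 with no treatment, asks whether this peptide, described as a ligand of EGFR, is followed by changes of the same transcripts. It uses the same untreated libraries as the first. None of the 7 tested ligands was a DEG of bleogen pB1 in edgeR, where 1.48% of all tested genes were DEGs (0.218% upregulated and 1.26% downregulated). DESeq2 called none either. It gave no adjusted p for BTC (log2FC −0.64) and EPGN (log2FC −0.17), so it could not call these genes. At an unadjusted p under 0.05 there were 4, AREG, HBEGF, TGFA and BTC, against 22.2% of all tested genes. That count was 7 for EGF against untreated cells and 7 for EGF against bleogen pB1, where 69.1% and 62.6% of all tested genes had such a p. The median log2FC was 0.25 over the 7 ligands and −0.00 over all tested genes.

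AREG had 4.68, 6.82 and 5.38 CPM with bleogen pB1, all above the untreated 3.57 to 4.44 CPM. The log2FC was 0.46 (SE 0.14, edgeR adjusted p = 0.083, 95% interval 0.16 to 0.77). DESeq2 gave AREG an adjusted p of 0.030 with a change within the fold limit. HBEGF had 3.49, 7.19 and 5.06 CPM, which overlapped the untreated range of 2.80 to 4.49, with a log2FC of 0.57 (SE 0.23, edgeR adjusted p = 0.16, interval 0.08 to 1.07). EREG had 2.68, 7.98 and 5.48 CPM, so that replicate 1 lay below and replicates 2 and 3 above all untreated libraries (4.18 to 4.63 CPM), and its log2FC was 0.28 (SE 0.27, edgeR adjusted p = 0.58). TGFA had 32.9, 41.9 and 40.5 CPM against 30.2 to 34.8 in untreated cells, a log2FC of 0.25 (SE 0.09, edgeR adjusted p = 0.12, interval 0.06 to 0.44).

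BTC had 2.15, 1.86 and 1.83 CPM with bleogen pB1, all just under the untreated range of 2.20 to 3.62 CPM. Its log2FC was −0.64 (SE 0.23, edgeR adjusted p = 0.13, interval −1.14 to −0.14). NRG1 had 111, 138 and 125 CPM and overlapped the untreated cells (log2FC 0.11, SE 0.09, edgeR adjusted p = 0.52). EPGN had 1.00, 1.44 and 0.983 CPM, with overlap too (log2FC −0.17, SE 0.25, adjusted p = 0.73 in edgeR). AREG and BTC were the 2 of 7 ligands without overlap between these groups, against 29.1% of all tested genes. The 95% intervals lay apart from those under EGF for each ligand but EPGN, whose upper bound of 0.37 lies within the interval of its change under EGF, from 0.30 to 1.31. For HBEGF the upper bound was 1.07 with bleogen pB1 and the lower bound 4.47 with EGF, and for BTC the lower bound was −1.14 with bleogen pB1 and the upper bound −1.53 with EGF.

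Replicate 1 of bleogen pB1 had the lowest and replicate 2 the highest level of AREG, HBEGF, EREG, TGFA and NRG1 in that group. Without replicate 1, 3 ligands passed both thresholds, HBEGF with a log2FC of 0.80 (edgeR adjusted p = 0.020), EREG with 0.60 (edgeR adjusted p = 0.029) and AREG with 0.58 (edgeR adjusted p = 0.019). In that fit 3.48% of 12526 tested genes were DEGs, 0.798% upregulated and 2.68% downregulated. Without replicate 2, the log2FC was −0.12 for EREG (edgeR adjusted p = 0.87), 0.27 for HBEGF (edgeR adjusted p = 0.61) and 0.29 for AREG (edgeR adjusted p = 0.33), and no ligand passed. The summed FPKM of the ligands that bind EGFR was 15.2, 22.1 and 18.9 with bleogen pB1, of which the first lies within the untreated range (two-sided exact permutation test, p = 0.2), and NRG1 held 60.3% ± 1.57 of the 8-ligand sum. Its share of 58.7% to 61.9% lay below the 62.2% to 64.6% of untreated libraries, and that of AREG, 10.1% ± 0.642 against 8.15% ± 0.784, lay above, both without overlap. The share of EPGN, 1.01% ± 0.129 against 1.25% ± 0.240, lay just below without overlap (exact permutation test, two-sided, p = 0.1 for each of the 3, the smallest that 3 against 3 allow, adjusted 0.13). On expected counts the share of AREG differed by 0.58 percentage points in place of 1.93, and that of NRG1 by −1.94 in place of −3.06.

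**Figure D4:**
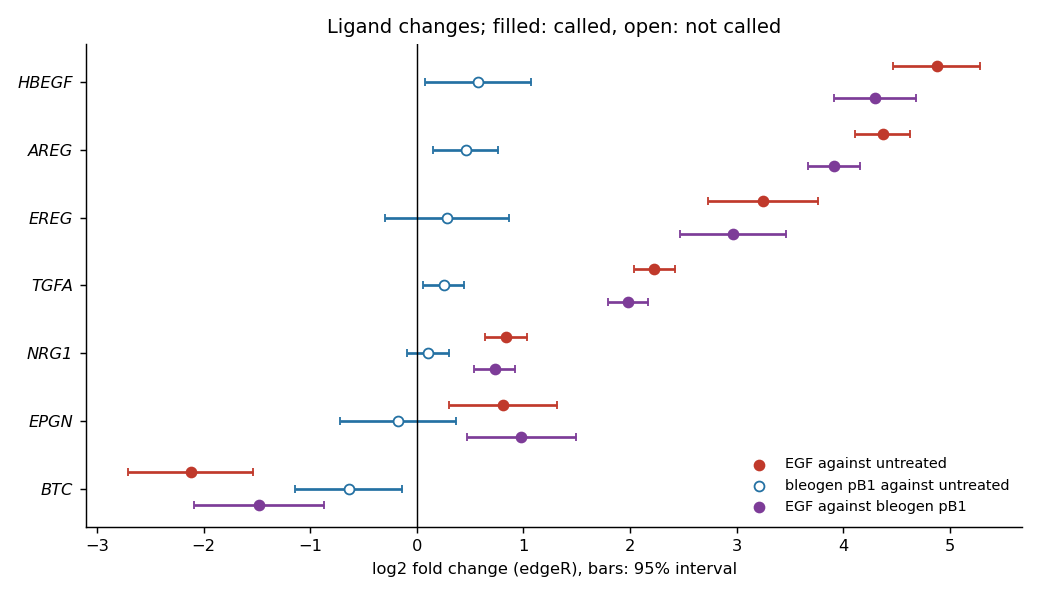
Log2 fold change (x axis, edgeR) of the 7 tested ligands (y axis) in the 3 comparisons, with 95% intervals. Filled points passed both thresholds and open points did not. Under EGF the values run from −2.12 for BTC to 4.87 for HBEGF, and under bleogen pB1 from −0.64 to 0.57.

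Set directly against each other, EGF and bleogen pB1, given at different doses, left all 7 ligands as DEGs, 6 higher and 1 lower with EGF, where 10.8% of all tested genes were higher and 18% lower (28.8% together). HBEGF was 19.7-fold higher with EGF (log2FC 4.30, SE 0.18, edgeR adjusted p = 1.7e-09) and AREG was higher by 3.91 (SE 0.11, edgeR adjusted p = 1.1e-10). EREG, TGFA, EPGN and NRG1 differed by 2.96, 1.98, 0.98 and 0.73 on the log2 scale (edgeR adjusted p from 3.1e-09 to 0.0032). BTC was 2.79-fold lower with EGF (log2FC −1.48, SE 0.28, edgeR adjusted p = 0.00066), and the call was lost in limma on log2(FPKM + 1), at −0.46. All 7 had no overlap between these groups, against 62.4% of all tested genes.

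Of the 4 ERBB receptor genes, 3 were downregulated DEGs with EGF, where 21.8% of all tested genes were. ERBB2, the co-receptor without a ligand, fell from 244 ± 5.13 to 108 ± 10.3 CPM (SD, n = 3 each; log2FC −1.17, SE 0.10, edgeR adjusted p = 7.0e-07). ERBB3, a receptor of NRG1, fell from 81.6 ± 2.66 to 41.6 ± 3.39 CPM (−0.97, SE 0.09, edgeR adjusted p = 1.8e-06). ERBB4 fell from 1.13 ± 0.360 to 0.247 ± 0.0438 CPM, at 4 to 6 counts in the EGF-treated libraries (−2.16, SE 0.41, edgeR adjusted p = 0.00046). EGFR itself was at 486 ± 18.4 and 361 ± 47.6 CPM, a log2FC of −0.43 (SE 0.10, edgeR adjusted p = 0.0020) that stayed within the fold limit. Under bleogen pB1 none of the 4 receptors passed both thresholds, where 1.48% of all tested genes did. Of the 4, ERBB4 came closest (−1.40, SE 0.37, edgeR adjusted p = 0.051).

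Of the neuregulins outside the members, NRG4, a ligand of ERBB4, was at 4.16 ± 0.402 CPM without treatment, 4.70 ± 0.822 with EGF (log2FC 0.18, edgeR adjusted p = 0.47) and 3.34 ± 0.978 with bleogen pB1 (log2FC −0.31, adjusted p = 0.42 in edgeR; SD, n = 3 each). NRG2 had at most 2 counts in any library, and NRG3 had no entry. Of 12 tested genes of ligand shedding and processing, 2 rose and 4 fell with EGF, where 15.1% of all tested genes rose and 21.8% fell, and the list median was −0.18 against −0.01 over all tested genes. The metalloprotease gene ADAM19 rose from 8.28 ± 0.699 to 57.5 ± 11.2 CPM (log2FC 2.79, SE 0.14, edgeR adjusted p = 5.5e-09), and FURIN, the proprotein convertase that matures ADAM proteases, rose by 0.64 (edgeR adjusted p = 2.4e-06). ADAM10 fell by 0.52 (edgeR adjusted p = 5.2e-06), as did RHBDF1, RHBDL2 and TIMP3, named after their values were seen. ADAM17, the main sheddase of several of these ligands, was at −0.16 and within the fold limit. Of 6 partners of the ligands at the cell surface, 1 rose and 5 did not pass both thresholds, where 15.1% of all tested genes rose. The 1 that rose was CD44, whose heparan sulfate forms bind HB-EGF, by 1.23 (edgeR adjusted p = 6.3e-09).

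Downstream, 7 of 16 tested inhibitors of the receptor and of ERK rose with EGF and 1 fell, again beside 15.1% and 21.8% of all tested genes. The ERK phosphatase genes DUSP6, DUSP5 and DUSP4 rose by 2.07, 2.02 and 1.66 on the log2 scale (edgeR adjusted p from 1.6e-10 to 1.5e-08). Of 15 ERK-induced transcription factors and early genes, 8 rose, 3 fell and 4 were not called. Those that fell were EGR3 at −1.68, EGR2 at −1.60 and FOS at −0.53 (edgeR adjusted p from 0.00073 to 0.024), named after their values were seen. FOSL1, an AP-1 subunit, rose by 3.50, IER3 by 3.36 and PHLDA1 by 1.81 (edgeR adjusted p from 5.4e-10 to 6.9e-10). Of 15 genes of the ERK cascade itself, 3 rose and 2 fell, 5 called in all where 36.9% of all tested genes were, among them MAP2K1 at 0.75 and the adaptor gene GRB2 at 0.52, which rose, and MAPK3 at −0.63, which fell. The medians under EGF were 0.34, 0.82 and −0.08 for these 3 lists, against −0.01 over all tested genes. None of the genes of these lists was a DEG of bleogen pB1. Only 1.48% of all tested genes were, so that a count of none lies close to this share. With bleogen pB1, DUSP6 was at −0.28 (SE 0.07, edgeR adjusted p = 0.035, within the fold limit), and FOSL1 at 0.49 (SE 0.13, edgeR adjusted p = 0.053).

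The genes whose pattern was most like that of each ligand were found by the Pearson r of log2 CPM over the 9 libraries among 10867 genes with at least 50 counts on average. With 3 libraries far from the other 6, such an r mostly reflects the EGF-treated libraries and is a description only. The closest to TGFA were AREG and HBEGF (r = 0.998 for each). HBEGF was closest to SSFA2 and GPAT3, AREG to HPCAL1 and KPNA4, EREG to MTHFD1L and CCND3, and NRG1 to PTP4A1 and GNL3L (r of 0.997 to 0.999). BTC was closest to PSMB9, which encodes an immunoproteasome subunit, and LGALS3BP (r = 0.994 and 0.992), and EPGN to THAP5 and SLC10A7 (r = 0.983 and 0.973).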

How the data were processed

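RNA of 9 HaCaT libraries was sequenced by BGI and mapped to GRCh38.p12. The program that counted reads is not given in the sources used here, and neither is whether counting used the strand, which the dUTP step of the library protocol marks. The authors deposited, for each gene, expected counts with no scaling for depth, and FPKM, which the authors scaled for gene length and library, beside a gene length averaged over transcripts. A gene not listed for a library was taken as 0 there, and the lowest listed FPKM was 0.01.

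For 12394 genes that passed filterByExpr, rounded expected counts went into 1 edgeR model (version 4.0.16, R 4.3.3) of the 9 libraries, with TMM factors of 0.964 to 1.02, glmQLFit, glmQLFTest and 6 residual degrees of freedom. Thresholds follow the study, whose authors ran DESeq2. The SE is the absolute log2 fold change over the square root of F. Alternatives were DESeq2 1.42.0, limma 3.58.1 on log2(FPKM + 1) or log2(FPKM + 0.1), other scaling, filters and limits, leaving out single libraries, and a replicate block. Sums and shares used Python 3.11.15 and scipy 1.17.1. Libraries of a group differed by more than sampling noise. On counts simulated for EGF against untreated, where 200 of 12394 genes differed 2-fold, 165 to 179 were found by edgeR, with 3 to 5 false calls. The simulation took its spread from the same fit. In the data 36.9% of tested genes were DEGs of EGF, so these figures need not hold for that comparison.

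The members and lists were chosen with earlier results of these data known. Named genes are the members, the receptors and neuregulins, up to 3 DEGs with the smallest adjusted p per list and comparison, and the 2 genes most like each member. Both treatments share the untreated libraries.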

Additional observations from a re-analysis of the deposited data

How the results depend on the processing

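Of 152 log2 fold changes of single ligands per comparison under alternative settings, 149 kept direction and call for EGF, 148 for bleogen pB1 and 148 for the direct contrast. Settings that changed only the thresholds kept the main values, so direction could not change there. Leaving out a library of the group not compared left the log2FC nearly the same. For bleogen pB1, BTC and EPGN had no adjusted p in DESeq2 and were counted there as not called. The number of downregulated ligands was 0 in place of 1 for EGF with limma on log2(FPKM + 1) and an FPKM of at least 1 in 3 libraries, a filter that BTC and EPGN did not pass, and 0 for the direct contrast with limma on log2(FPKM + 1) with or without that filter. Leaving out each library in turn gave 0 to 3 upregulated ligands for bleogen pB1, the 3 without its replicate 1. EREG was at 0.60 without that library and at −0.12 without replicate 2. With single libraries left out the share of EREG under bleogen pB1 differed by −0.31 to 0.61 percentage points, and by 0.12 with all libraries. With expected counts in place of FPKM, the share of TGFA was 5.95 percentage points higher with EGF than in untreated cells, in place of −1.02. It was 4.54 higher than with bleogen pB1, in place of −2.28. The size of other shares changed too, as given above for part of them. At a log2FC limit of 1, EPGN (0.81 and 0.98) and NRG1 (0.84 and 0.73) were no longer called for EGF or in the direct contrast, and limma on log2(FPKM + 1) gave 0.30 and 0.35 for EPGN. Upper-quartile factors put the median of all genes under EGF at −0.12 in place of −0.01. The replicate block changed no ligand count (6 upregulated and 1 downregulated for EGF, 0 for bleogen pB1), and calls over all genes were 4560 in place of 4578 for EGF and 186 in place of 183 for bleogen pB1. Same-numbered untreated and bleogen pB1-treated libraries deviated together with r of 0.21, −0.03 and 0.11, and differently numbered ones with r from −0.25 to 0.16. These r do not settle whether the numbers pair the cultures, and the main fit used no pairing. BTC, EPGN and the EGF gene rest on few counts, where this depth limits the precision.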

Other observations

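The deposited gene length, an average over the transcripts assigned to a gene in each library, did not overlap between EGF-treated and untreated libraries for BTC and NRG1. For BTC, which has 2 transcripts in the files, it was 2704 to 2766 bases in untreated, 2680 bases in each EGF-treated and 2791 to 2827 bases in bleogen pB1-treated libraries, with 11 to 17 counts in the EGF-treated ones. For NRG1, with 23 transcripts, it was 4429 to 4578 bases in untreated, 4609 to 4723 in EGF-treated and 4525 to 4643 in bleogen pB1-treated libraries. HBEGF, AREG and EREG each have 1 transcript in the files and a constant length, and that of TGFA stayed between 4325 and 4344 bases. For EPGN, with 5 transcripts, it was 2542 to 2654 bases in untreated, 2552 to 2622 in EGF-treated and 2515 to 2565 in bleogen pB1-treated libraries, with overlap. The few counts of the EGF gene gave 5252 to 5577 bases, also with overlap. No test was made of these lengths. The share of all genes whose lengths do not overlap between the groups was not counted, so the gaps of BTC and NRG1 cannot be set against it.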
